A study of Drosophila melanogaster with 2 samples.

Results

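Mitochondria carry their own ribosome, which translates the few messages of the mitochondrial genome into core subunits of the respiratory chain and the ATP synthase. Its proteins are encoded in the nucleus, made in the cytosol and imported, so the nucleus sets how much of this ribosome a cell can build. E2f2 is the fly E2F protein that acts mainly as a repressor, with its partner Dp, the retinoblastoma family proteins and the dREAM complex, and it is known above all from promoters of cell cycle and differentiation genes. The genes described here are the 73 protein-coding genes of the fly annotation whose symbol begins with mRpL or mRpS. They stand among 13968 protein-coding genes in all. The 47 mRpL genes are named for the large subunit and the 26 mRpS genes for the small subunit. The subunit was read from the symbol and was not checked protein by protein. The members were picked by symbol and not by their own binding, although earlier results of these data were known when the group was chosen. They lie apart from each other on the X chromosome (11 genes), 2L (12), 2R (12), 3L (17) and 3R (21).

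The data were ChIP-seq peak lists from whole Drosophila melanogaster embryos collected at 0 to 24 h, from a strain with an insertion that expresses E2f2 fused to eGFP. An antibody to GFP pulled the fusion down from chromatin sheared by sonication to 200 to 800 bp. The study had 2 biological replicates of this 1 group, with no second condition, so nothing was compared between conditions and no test was run. Peaks from all cell types and ages of the embryo are pooled, and an untagged or input sample was not analysed here. There were 7312 entries in the conservative list of the combined replicates, which is the main list below. The larger combined list had 8752 entries, the list of replicate 1 had 5002 and that of replicate 2 had 8250, each thresholded on IDR (irreproducible discovery rate, the expected share of peaks whose rank is not repeatable). A gene was called bound when the summit of an entry, its highest point, lay within 500 bp of any annotated transcription start site (TSS) of the gene. The signal value is the number that the authors' peak caller gave to each entry, in its own units, and is compared only within a list. Words such as tall, strong and weak refer below to this value alone. The sources used here give no read depth.

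Several words in the DNA near these genes recur through the results, and examples are shown here so that they can be read beside the values. The E-box CAGCTG is a word read by basic helix-loop-helix factors and is its own reverse complement. It stood within 50 bp of the gene's 5′ end in all 12 examples below. The examples were chosen after the E-box shares of the members were known. They are on the dm6 build, from the RefSeq copy of the assembly, each on the strand of its gene, with the E-box in capitals. The first 7 belong to bound genes and the last 5 to unbound genes.
mRpL23, chr3L:2373715-2373744, minus strand: gtggttgacaatCAGCTGtttaaaacaagt
mRpL24, chr2L:4945324-4945353, minus strand: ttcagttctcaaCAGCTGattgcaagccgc
mRpL40, chr3R:11407929-11407958, plus strand: cagcaacaaaaaCAGCTGttcgtacattac
mRpS2, chr2L:4850413-4850442, minus strand: aacactacccacCAGCTGtttaccaaaatc
mRpL33, chrX:4322207-4322236, minus strand: gataggcgcagtCAGCTGttcttcgttcct
mRpL45, chr3R:22618471-22618500, plus strand: aatcacgtttgcCAGCTGgtcgcgttagtg
mRpS34, chr3L:16348064-16348093, plus strand: agccagccggcaCAGCTGttcgaccttccc
mRpL28, chr2L:4973979-4974008, plus strand: ttcacatacgaaCAGCTGttttttccaaac
mRpL32, chr3R:31252844-31252873, plus strand: atatcgatagcaCAGCTGtttcctcttgcg
mRpL35, chr3R:22023510-22023539, plus strand: gtgaatggcacaCAGCTGactgttacgcga
mRpL47, chr3R:9515873-9515902, minus strand: ttgttattgcttCAGCTGttttgttcggtc
mRpS21, chr3R:13381790-13381819, minus strand: agtgatattcatCAGCTGtttagcagtaca

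The other set shows the words of the precipitated factor itself. E2F proteins read the words TTTGGCGC, TTTCCCGC, TTTCGCGC and TTTGCCGC, and only 3 bound members held any of them within 100 bp of the summit. They are shown in full, with the E2F word in capitals (as its reverse complement in the first and the third).
mRpL17, chr3L:264746-264775, plus strand: gatagatccagGCGCCAAAagagtatcgct
mRpL30, chrX:4647757-4647786, plus strand: tcacttttaacTTTGCCGCctttgcatttg
mRpS9, chr3R:7902720-7902749, minus strand: tttttaaatggGCGCCAAAaatcagctgaa

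E2f2 summits lay at most of the mitochondrial ribosomal protein genes. Of the 73 members, 54 were bound, or 74.0% (exact Clopper-Pearson 95% interval 62.4 to 83.5%), beside 40.7% of all protein-coding genes. Of the mRpL genes 36 of 47 were bound (76.6%, 62.0 to 87.7%), and of the mRpS genes 18 of 26 (69.2%, 48.2 to 85.7%), so their intervals overlap. These intervals cover counting error over genes only, and were not turned into a test. The 54 bound members had 54 distinct peaks, and no summit was shared between members.

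The mitochondrial ribosome is descended from a bacterial ribosome and has gained many proteins since. By the number in the symbol, 42 members fall among the classes that bacteria also have (L up to 36, S up to 21) and 31 among those numbered above them. Of the first 42, 34 were bound (81.0%, 65.9 to 91.4%), and of the other 31, 20 were bound (64.5%, 45.4 to 80.8%). In the list of replicate 1 these shares were 66.7% and 45.2%. In that of replicate 2 they were 73.8% and 74.2%, so the difference was absent there. Bound genes were fewest among the mRpS genes of higher number, with 6 of 12 (21.1 to 78.9%). The number is an imperfect guide, since mRpL47 and mRpS24, both unbound, do have a bacterial counterpart. Moving those genes across, a choice made after seeing the data, gave 34 of 44 (77.3%) and 20 of 29 (69.0%).

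Most of these genes are arranged head to head with another gene. A divergent neighbour, here an oppositely oriented protein-coding gene whose 5′ end lies within 1000 bp upstream of the 5′ end of the gene, was present at 56 of the 73 members (76.7%), beside 33.3% of all protein-coding genes. A summit between such genes can belong to either. Among members with a divergent neighbour 41 of 56 were bound (73.2%, 59.7 to 84.2%), close to the 66.3% of all genes so arranged. Among members without, 13 of 17 were bound (76.5%, 50.1 to 93.2%), beside 27.9% of all genes without a divergent neighbour. Thus the share of bound members was about the same in either arrangement, while over all genes it was much lower without a neighbour. This was not particular to the members. Without a divergent neighbour, 28 of 38 cytosolic ribosomal protein genes were bound (73.7%) and 7 of 8 mitochondrial tRNA synthetase genes (87.5%). Translation factor genes stood at 4 of 6 and those of mitochondrial transcription and genome upkeep at 5 of 5. Lower shares were those of respiratory chain and ATP synthase genes (25 of 50) and import genes (3 of 11). The respiratory chain and ATP synthase list holds 24 paralogues, of which 1 was bound, and this split was not recounted without them.

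**Figure D1:**
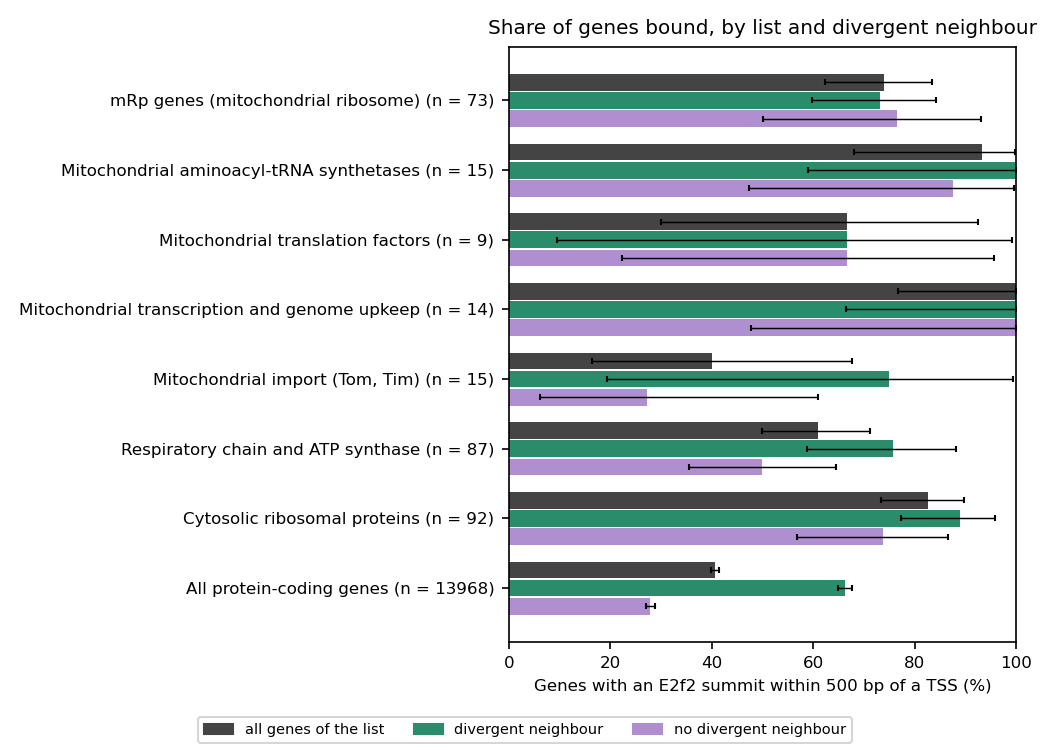
Share of genes with an E2f2 summit within 500 bp of a TSS (%, horizontal axis) for the mRp genes, 6 comparison lists and all protein-coding genes, each over the whole list and split by divergent neighbour; bars are shares, whiskers exact 95% intervals over genes. The mRp bars stand at 74.0%, 73.2% and 76.5%, against 40.7%, 66.3% and 27.9% for all protein-coding genes.

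The assignment of summits decided how much of this was counted to the members themselves. Giving each summit to its nearest TSS only left 34 of the 73 members bound (46.6%), beside 31.6% of all genes. The loss was all among members with a divergent neighbour, of which 21 of 56 were left (37.5%), below the 41.6% of all genes so arranged. Members without a neighbour stayed at 13 of 17 (76.5%), beside 26.6% of all genes without one. These 13 are mRpL9, mRpL12, mRpL13, mRpL14, mRpL19, mRpL36, mRpL40, mRpL45, mRpL53, mRpS9, mRpS14, mRpS34 and mRpS35. At mRpL13 and mRpL53 the summit was equally near to a TSS of CG10602 and of CG33155, genes of the same locus that cannot be told apart from the member by position. A TSS of another gene, further off but within 500 bp of the summit, was that of Naa15-16 at mRpS14 and of AGO1 at mRpL53.

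Between the head-to-head genes, the 41 bound members had gaps of 24 to 793 bp to the neighbour's 5′ end, with a median of 279 bp, and the 15 unbound members with a neighbour had a median gap of 290 bp. The neighbour was bound too at 38 of the 41 (92.7%), beside 92.1% of all bound genes with a divergent neighbour, since a summit in a short gap counts for both genes. Its TSS was the closer one to the summit at 21 of the 41 (51.2%), beside 42.6%. Examples picked after their values were seen show both cases. The strongest summit at mRpS7, whose protein belongs to the head of the small subunit, lay 404 bp upstream of the mRpS7 TSS and 4 bp from a TSS of Cdk1, the kinase that drives entry into mitosis. At mRpL15 the summit fell 41 bp upstream of the member and at 0 bp from a TSS of CtIP, which works in DNA end resection. The mRpL21 summit lay 46 bp from a TSS of rept, an AAA+ ATPase of chromatin remodelling complexes, against 233 bp from the member's own. At mRpL55 the summit lay 10 bp from the TSS of ATPsynD, a subunit of the ATP synthase, and 105 bp from the TSS of mRpL55. The pair mRpS11 and Ns1, a nucleostemin GTPase of ribosome assembly, was the reverse case: the summit lay 9 bp from the mRpS11 TSS and 66 bp from that of Ns1.

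**Figure D2:**
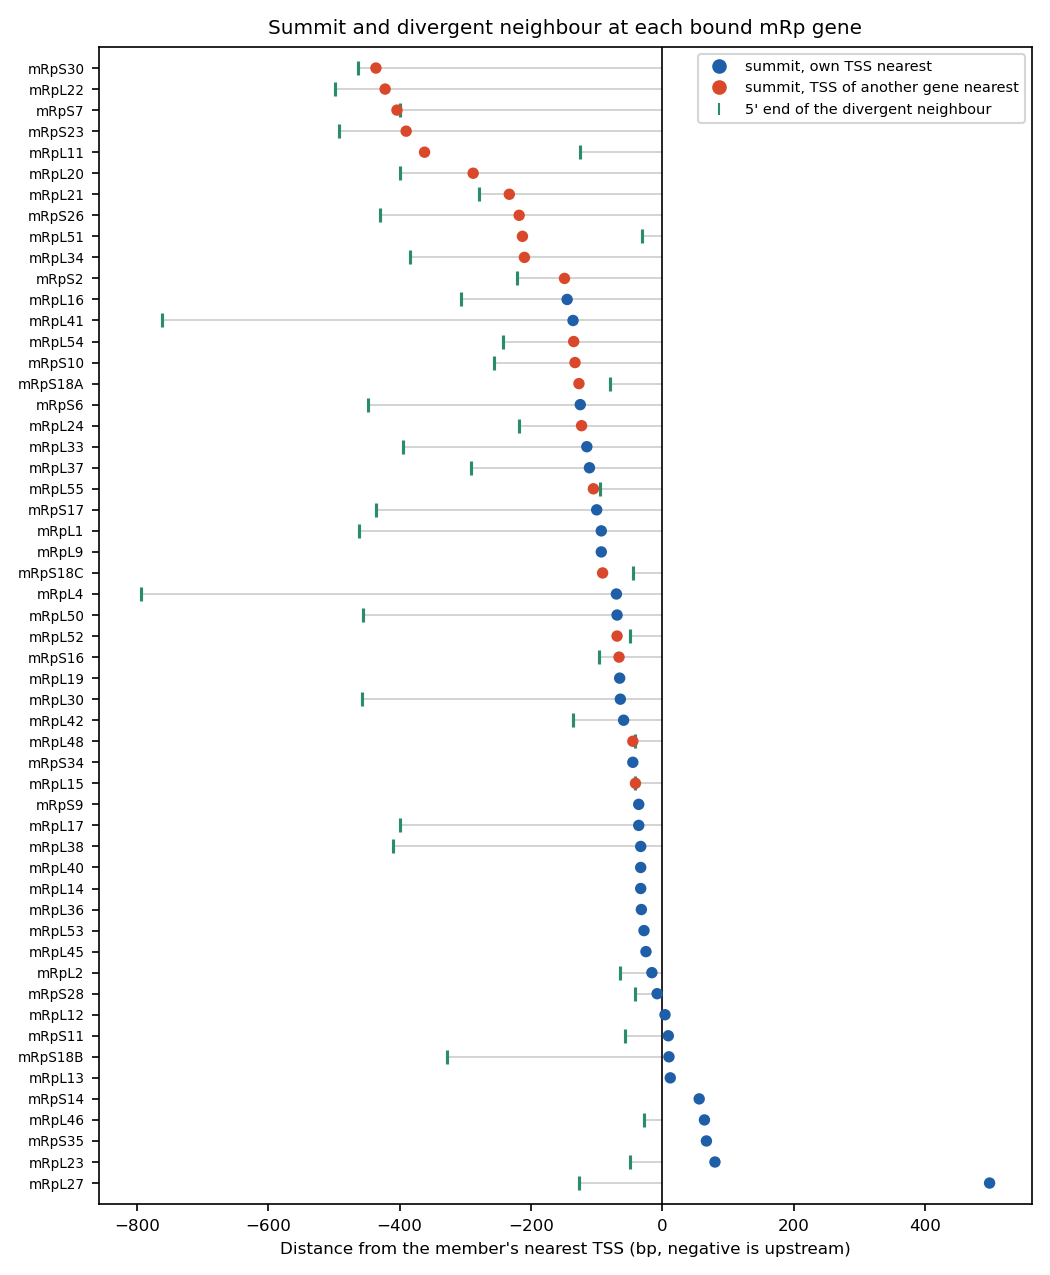
Position of the summit of highest signal value (dots) and of the 5′ end of the divergent neighbour (green ticks) at each of the 54 bound mRp genes, in bp from the member's nearest TSS with upstream negative; dot colour says whether the member's own TSS (33 genes) or that of another gene (21 genes) was nearest. Most summits lie just upstream of the member, and those beyond 200 bp upstream are nearer to a TSS of another gene.

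As at other bound genes, most summits sat just upstream. At the bound members 45 summits were upstream of the nearest TSS of the member (83.3%, beside 86.3% over all bound genes) and 9 downstream. The median distance was 75 bp, beside 90 bp over all bound genes, and 32 of the 54 lay within 100 bp (59.3%, beside 54.1%). By annotation 35 of the 54 summits were intergenic (64.8%, beside 64.4% of all bound genes), 16 in a 5′ UTR (29.6% beside 21.2%), 2 in an intron (3.70% beside 10.8%) and 1 in a coding exon (1.85% beside 0.81%). Near the edge of the window, the members just inside were mRpL11 at 362 bp, mRpS23 at 390 bp, mRpL22 at 422 bp, mRpS30 at 436 bp and mRpL27 at 498 bp, and those just outside were mRpL32 at 654 bp, mRpS29 at 670 bp and mRpL18 at 707 bp.

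Although many members were bound, their peaks were of modest signal value. The median signal value of the 54 bound members was 173 (quartiles 144 and 342), beside 252 (quartiles 144 and 576) for all 5681 bound genes, and 36 of the 54 lay below that median of all bound genes. With a divergent neighbour the medians were 173 for the members and 226 for all bound genes, and without one 217 and 295. Of the lists described below, the mitochondrial tRNA synthetase genes had a like median of 176. The medians of the other lists ran from 202 at respiratory chain and ATP synthase genes to 520 at tko and bonsai. Of the 1000 entries of highest signal value, 6 lay at members, or 8.22% of the 73 genes, beside 7.82% of all genes.

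The tallest peak stood at mRpL41, a large subunit protein with no bacterial counterpart. Its signal value was 1332 in the list from both replicates, 415 in replicate 1 and 926 in replicate 2. The peak covered chr2R:15217544-15217973, with its summit 136 bp upstream of mRpL41, and its divergent neighbour CG8079 lay 762 bp from the member and was unbound. Thus the strongest member was not one that shared its summit with a closer neighbour.

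Next came mRpS10, a small subunit protein of the bacterial set, with 1241 in the list from both replicates, 332 in replicate 1 and 898 in replicate 2. Its summit, in the peak chr3R:15229322-15229736, lay 133 bp from mRpS10 and 124 bp from Art3, an arginine methyltransferase gene. The mRpS23 peak had 1236, with 342 in replicate 1 and 908 in replicate 2, but its summit lay 390 bp upstream of mRpS23 and 102 bp from CenG1A, which encodes a GTPase-activating protein. These summits stand between genes, and the list does not say to which of them the peak belongs.

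Then followed mRpL23, a protein at the exit of the ribosome tunnel, with 947 in the list from both replicates, 294 in replicate 1 and 657 in replicate 2. Its summit lay in the 5′ UTR, 80 bp downstream of the TSS and 130 bp from a TSS of its divergent neighbour CG9004. The mRpL38 peak had 939.6, with 323 in replicate 1 and 606 in replicate 2. The mRpL38 summit lay 33 bp upstream of the gene and 377 bp from a TSS of its divergent neighbour CG11674. The mRpS9 peak had 869, with 239 in replicate 1 and 625 in replicate 2. It was the tallest of the members without a divergent neighbour, lay 36 bp upstream of the TSS, and carries the E2F word printed above.

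The other 6 of the 12 tallest ran from 364 to 637. The mRpL22 peak had 637 (162 in replicate 1, 427 in replicate 2), with its summit 422 bp upstream of the member and 77 bp from if, which encodes an integrin alpha chain. The mRpS14 peak had 593 (253 in replicate 1, 352 in replicate 2) and lay in the 5′ UTR, 56 bp downstream of the TSS. It had no divergent neighbour, but a TSS of Naa15-16 also lay within 500 bp of the summit. The mRpL20 peak had 501 (109 in replicate 1, 391 in replicate 2), nearer to Icmt, a carboxyl methyltransferase gene, at 111 bp than to the member at 288 bp.

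The mRpS7 peak described with Cdk1 had 432 (197 in replicate 1, 241 in replicate 2). The mRpL24 peak had 407 (112 in replicate 1, 300.2 in replicate 2), with its summit 123 bp from the member and 95 bp from betaggt-I, which encodes the beta subunit of a geranylgeranyl transferase. The mRpL30 peak had 364 (85.5 in replicate 1, 285 in replicate 2), 64 bp upstream of the member, opposite HLH4C, which encodes a basic helix-loop-helix protein. In each of these 12 genes the value was higher in replicate 2 than in replicate 1, and highest in the list from both. The remaining 42 bound members lay between 65.9 at mRpL27 and 361 at mRpL14.

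**Figure D3:**
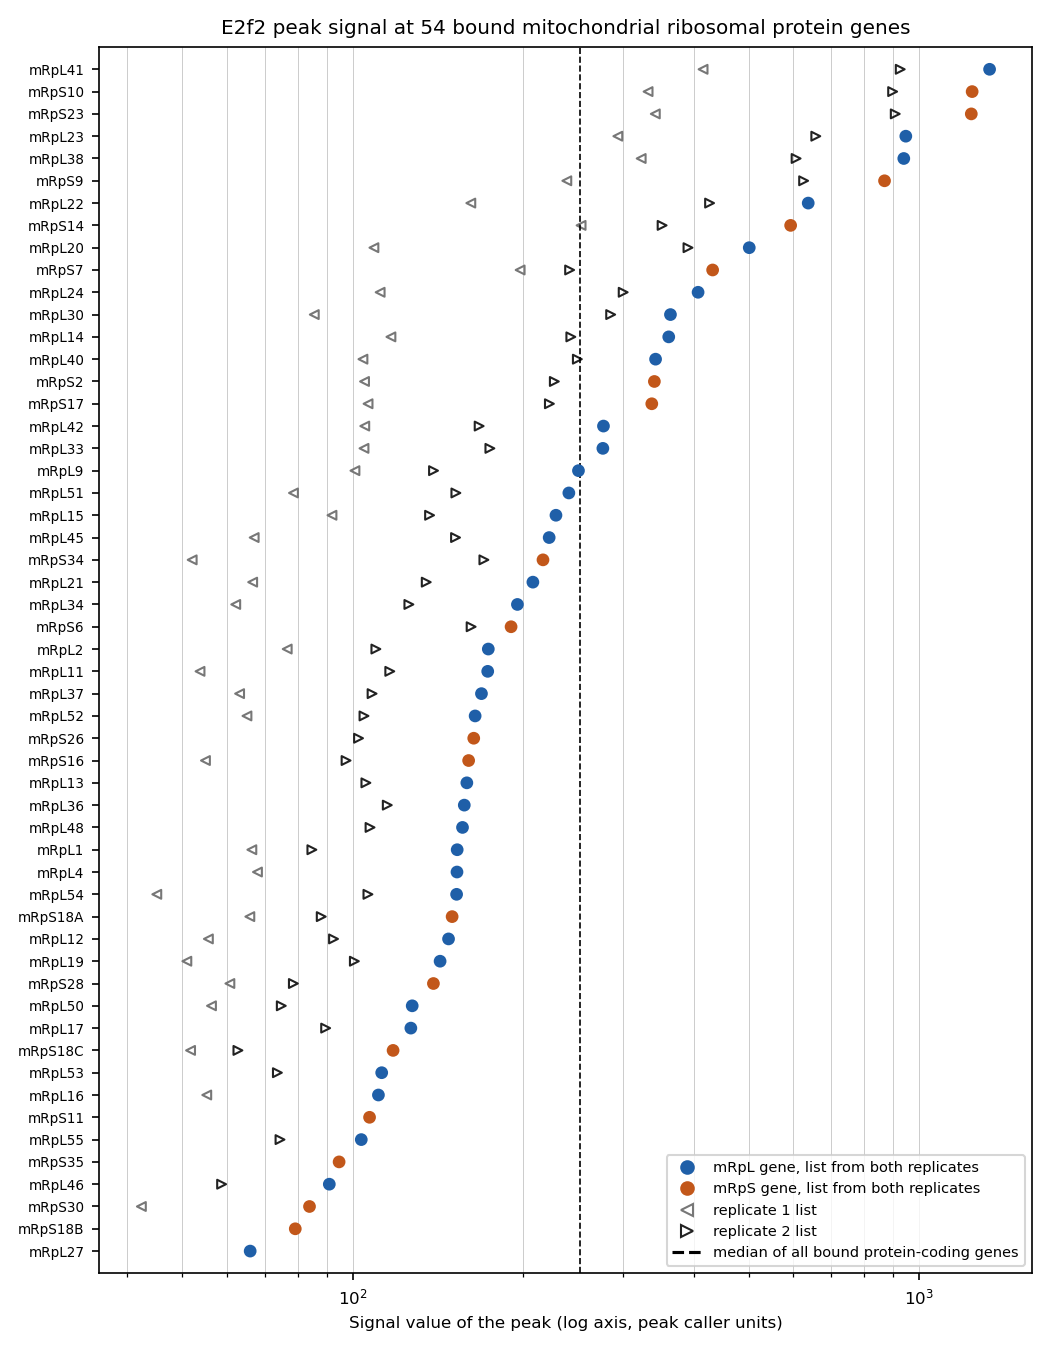
Signal value (log axis, peak caller units) of the entry at each of the 54 bound mRp genes, in the list from both replicates (filled circles, coloured by mRpL or mRpS symbol) and in the lists of replicates 1 and 2 (triangles, absent where the gene was unbound there). Circles run from 65.9 at mRpL27 to 1332 at mRpL41, and 36 lie left of the dashed median of all bound genes (252).

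The replicates gave unequal counts. In the list of replicate 1, 42 of the 73 members were bound (57.5%), beside 33.5% of all genes. The list of replicate 2 bound 54 (74.0%), beside 42.1%. In both lists 38 were bound (52.1%), beside 32.2% of all genes, and in the larger list from both replicates 58 (79.5%), beside 44.1%. Over the 38 members with a value in each replicate list, the value of replicate 2 was higher in all 38, with a median ratio of replicate 2 to replicate 1 of 2.0, beside 1.8 over 4442 genes of the whole genome. Spearman's rho between the replicates was 0.888 over these 38 members and 0.937 over the 4442 genes, a description over genes of shared libraries. The values do not share a scale between lists, so a ratio says nothing of the amount bound.

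The 54 bound members were not equally supported. Of them 38 were bound in each replicate's own list, including all of the 12 tallest. A further 9 were bound in replicate 2 only: mRpL13, mRpL17, mRpL36, mRpL46, mRpL48, mRpL53, mRpL55, mRpS6 and mRpS26. The genes mRpL4, mRpL16 and mRpS30 were bound in replicate 1 only. Another 4, mRpL27, mRpS11, mRpS18B and mRpS35, were bound in neither replicate list, with values of 65.9, 107, 79.1 and 94.6 in the list from both. The weakest of these, mRpL27, rested on a summit in its coding exon 498 bp from the TSS and was the only bound member missing from the larger list.

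The 19 unbound members were mRpL3, mRpL10, mRpL18, mRpL28, mRpL32, mRpL35, mRpL39, mRpL43, mRpL44, mRpL47, mRpL49, mRpS5, mRpS21, mRpS22, mRpS24, mRpS25, mRpS29, mRpS31 and mRpS33. They include mRpL3, whose bacterial counterpart lies near the peptidyl transferase centre, and mRpS29, the fly form of the mammalian death-associated protein DAP3. Replicate 2 alone bound 7 of them: mRpS21 (92.6), mRpL43 (75.6), mRpL10 (75.2), mRpS24 (63.8), mRpS31 (53.5), mRpS22 (52.4) and mRpL49 (38.9). Replicate 1 alone bound mRpL18 (34.9). The larger list bound mRpL10, mRpL28, mRpL43, mRpS21 and mRpS22. A bound divergent neighbour stood beside mRpL18 (Taz, the cardiolipin remodelling enzyme tafazzin), mRpL28, mRpL32 (qless, of coenzyme Q synthesis) and mRpS29 (rad50, of DNA break repair). The neighbour's 5′ end lay 20 bp from mRpL18 and 55 bp from mRpL28, but the nearest summits lay 707 and 2597 bp from these members. Both neighbours were thus bound at a TSS other than their 5′ end, and not between the genes.

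The ranked lists also hold entries that fail the IDR threshold. All 73 members had an entry in the ranked list of replicate 1, beside 66.2% of all genes, and all 73 in that of replicate 2, beside 70.5%. At the 19 unbound members these entries passed the threshold, a −log10 IDR of at least 2, at 2 genes in replicate 1 and at 8 in replicate 2, of which 1 passed in both, and at 10 genes in neither. At mRpL32 the −log10 IDR was only 0.0568 in replicate 1 and 0.0706 in replicate 2, and at mRpS29 it was 0.167 and 0.0706, so an entry there is no sign of a reproducible peak. The gene that passed in both was mRpL47, a protein at the tunnel exit, where those entries had 73.8 in replicate 1 and 150.5 in replicate 2, both past the IDR limit of 0.01. The ranked list from both replicates held an entry at chr3R:9515864-9516095, with its summit 93 bp from the TSS, a signal value of 234 and a −log10 IDR of 3.72. It was 1 of 181 entries, among 7493 that passed, which the thresholded list does not contain, for a reason the sources used here do not give. With those entries added, 55 of the 73 members were bound.

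The words found within 100 bp of the summits (windows of 201 bp, both strands) were set beside those of all 5148 summits of the list within 500 bp of a protein-coding TSS. The E-box was in 21 of the 54 windows at members (38.9%, 25.9 to 53.1%), beside 16.1% of all promoter summits. E2F words were in 3 (5.56%, 1.16 to 15.4%), beside 8.82%. The word CGATA, read by the insulator protein BEAF-32, was in 29 (53.7%), beside 48.9%. The longer TATCGATA, the DNA replication-related element read by DREF, contains CGATA and was in 5 (9.26%), beside 13.6%: mRpL4, mRpL12, mRpL17, mRpL19 and mRpS18B. The word TTTGAA, the cell cycle homology region that the MuvB core of DREAM reads in mammals, was in 21 (38.9%), beside 41.6%. The core GGTCACACT of motif 1, read by M1BP, was in 3 (5.56%), beside 8.76%. Neither TGCGCATGC, a word of the NRF-1 family, nor GAGAGAG, read by GAGA factor, was in any window (0 of 54, upper exact limit 6.60%), beside 0.117% and 2.54%.

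The summits at the 3 members with an E2F word had signal values of 127 (mRpL17), 364 (mRpL30) and 869 (mRpS9), so both weak and strong members were among them. The 21 summits with an E-box had a median signal value of 159, and the 33 without one 195. The 21 with TTTGAA had a median of 241, and the 33 without it 157. No test was run on these medians. A match is a description of the letters, and a window with none says nothing of whether a factor was there.

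The E-box was present at unbound and bound members alike. In the 300 bp around the gene's 5′ end (250 before and 50 from it), 40 of the 73 members held it (54.8%, 42.7 to 66.5%), beside 17.6% of all protein-coding genes. Bound members had it in 30 of 54 (55.6%, 41.4 to 69.1%) and unbound members in 10 of 19 (52.6%, 28.9 to 75.6%), while over all genes the shares were 23.1% of bound and 13.9% of unbound. It was present at 53.6% of members with a divergent neighbour, beside 21.7% of all such genes, and at 58.8% of members without, beside 15.6%. The mRpL genes had it in 27 of 47 and the mRpS genes in 13 of 26.

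Most of these E-boxes lay near the 5′ end. The 45 E-boxes in these windows had a median position of 4.5 bp from the 5′ end (positive is downstream), beside -48.5 bp for the 2777 E-boxes of all genes. Of the 45, 36 lay within 50 bp of the 5′ end (80.0%), beside 50.8% of all and 61.0% of those at bound genes. The E-boxes of some other lists lay as close. Within 50 bp were 81.8% at cytosolic ribosomal protein genes (11 sites), 80.0% at mitochondrial tRNA synthetase genes (10 sites) and 88.9% at translation factor genes (9 sites). The share was lower at respiratory chain and ATP synthase genes (68.0%, 25 sites) and those of transcription and genome upkeep (62.5%, 8 sites). It was also lower at import genes (3 of 4 sites), tko and bonsai (2 of 3) and the amidotransferase genes (1 of 2). Counted as genes, 35 of the 73 members had an E-box that close (47.9%), beside 9.47% of all genes. The interval from 10 to 30 bp downstream, which the mRpL24, mRpL28, mRpL40 and mRpL47 examples above show, held 15 of the 45 sites (33.3%), beside 11.6% of all.

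**Figure D4:**
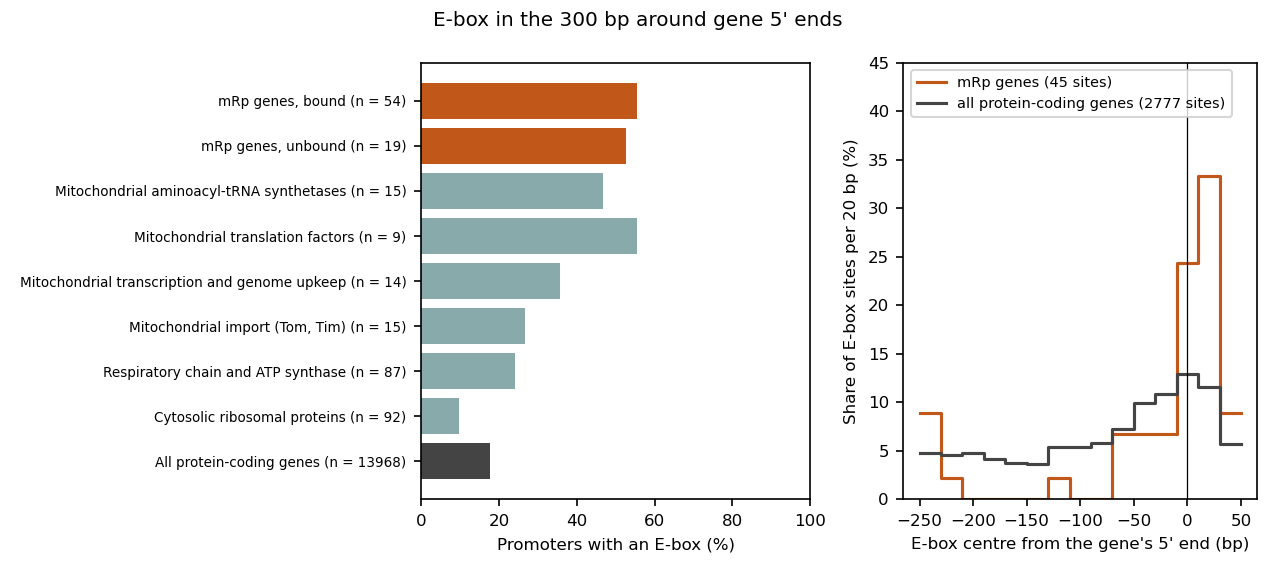
Left, share of genes (%) with the E-box CAGCTG in the 300 bp around the 5′ end, for bound and unbound mRp genes, 6 comparison lists and all protein-coding genes. Right, position of the E-box centre from the gene's 5′ end in bp, as the share of E-boxes (%) per 20 bp; 33.3% of those at mRp genes lie 10 to 30 bp downstream, against 11.6% for all genes.

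The other words were counted in the same promoter windows. CGATA was in 58.9% of the 73 windows, beside 47.3% of all genes, TATCGATA in 20.5%, beside 9.36%, and TTTGAA in 43.8%, beside 40.7%. E2F words were in 6.85%, beside 6.41%, and the motif 1 core in 11.0%, beside 6.04%. Bound members stood near all bound genes for CGATA (59.3% beside 60.5%), TATCGATA (16.7% beside 18.1%) and the motif 1 core (13.0% beside 12.7%). For E2F words these shares were 7.41% beside 8.52%, and for TTTGAA 40.7% beside 48.3%. GAGAGAG was in 1 of the 73 windows (1.37%, 0.0347 to 7.40%), beside 5.86%, and TGCGCATGC in 1 (1.37%), beside 0.530%. TATCGATA was found in 16.7% of the 54 bound members (7.92 to 29.3%) and 31.6% of the 19 unbound ones (12.6 to 56.6%), and these intervals overlap.

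Genes that act with the mitochondrial ribosome were described in the same way, from lists built by symbol. Further proteins of that ribosome with other names are tko, the small subunit protein known from the bang-sensitive fly mutant technical knockout, and bonsai. Both were bound, tko with 952 (396 in replicate 1, 566 in replicate 2) and bonsai with 88.5 (37.4 in replicate 1, 57.8 in replicate 2). The enzymes that charge mitochondrial tRNAs were bound at 14 of 15 genes (93.3%, 68.1 to 99.8%), beside 40.7% of all genes. They were led by IleRS-m (1325), LeuRS-m (573), ValRS-m (566) and PheRS-m (253), and GluRS-m was unbound. The amidotransferase that turns mischarged glutamyl-tRNA into glutaminyl-tRNA was bound at GatA (184), GatB (263) and GatC (291). GatC shares its peak with PolG2, the accessory subunit of the mitochondrial DNA polymerase.

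Mitochondrial translation factors were bound at 6 of 9 genes (66.7%, 29.9 to 92.5%), beside 40.7% of all genes. They were the elongation factors mEFTs (579) and mEFG1 (325), the initiation factors mIF3 (477) and mIF2 (106), the recycling factor mRRF1 (418) and the release factor mRF1 (79.9). The elongation factor genes mEFTu1 and mEFTu2 and the recycling factor gene mRRF2 were unbound, though replicate 2 bound mEFTu2 (78.4). Genes of mitochondrial transcription and genome upkeep were bound at all 14 (100%, 76.8 to 100%), led by mtDNA-helicase (879), SLIRP2 (684), mtTFB1 (569) and mTTF (351). Import genes of the Tom and Tim families were bound at 6 of 15 (40.0%, 16.3 to 67.7%), near the 40.7% of all genes. The list of import genes holds unbound Tim17 paralogues and was not recounted without them. Tom7 (1305) and Tom40 (1147), parts of the outer membrane pore, Tim9b (499) and Tim9a (168) led the bound import genes. Tom20, Tim10, Tim13 and Tim23 were among those unbound.

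The products of mitochondrial translation join nuclear-encoded subunits of the respiratory chain and ATP synthase. Of the genes of those subunits 53 of 87 were bound (60.9%, 49.9 to 71.2%), beside 40.7% of all genes. The median signal value at the 53 was 202. The tallest peaks among them stood at ATPsynB (1704) and COX4 (1135). This list holds 24 paralogues whose symbol ends in L or in L and a digit (ND-MNLL, a complex I subunit, is not among them), of which 1, COX7AL, was bound. Counted without them, a choice made after seeing the data, 52 of 63 were bound (82.5%, 70.9 to 90.9%). ATPsynC, ATPsyndelta, ATPsyngamma and ND-30 were among the unbound ones left. The cytosolic ribosomal protein genes were bound at 76 of 92 (82.6%, 73.3 to 89.7%), with a median signal value of 244, and RpS29 (2306) and RpL30 (1808) led them. The share of 74.0% bound at mitochondrial ribosomal protein genes thus lay inside the range of these other mitochondrial and ribosomal lists, and its interval overlapped that of each of them.

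The lists differed in their E-box shares. It was in 54.8% of the mitochondrial ribosomal protein promoters, beside 46.7% (7 of 15) for the mitochondrial tRNA synthetases, 55.6% (5 of 9) for the translation factors and 35.7% (5 of 14) for transcription and genome upkeep. It was in 26.7% (4 of 15) of import genes and 24.1% (21 of 87) of respiratory chain and ATP synthase genes, with their paralogues counted. The cytosolic ribosomal protein genes had it in 9.78% (9 of 92), under the 17.6% of all genes. TATCGATA was at 20.5% of the mitochondrial and 30.4% of the cytosolic ribosomal protein promoters, and at 10.3% of those of the respiratory chain and ATP synthase. No list was tested, and most of these lists are short.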

How the data were processed

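The members and lists were chosen with earlier results of these data known. The deposited files are peak lists on dm6, per the labels, as narrow peaks with a summit. The signal value of each entry was computed by the authors' peak caller, whose scale, like the aligner, the caller, their versions and the read depth, the sources used here do not give. The deposited ranked lists hold the −log10 of the IDR, and entries with at least 2 (an IDR of 0.01) were taken as passing. The score and p columns and the unnamed further columns were not used.

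Summits (start plus offset, given here counted from 1) were set against TSSs of the Ensembl release 115 annotation on the chromosome arms with Python 3.11.15, pandas 2.3.3, numpy 2.4.6 and scipy 1.17.1. Where a gene had more than 1 summit in the window, the one of highest signal value was used. Sequence came from the RefSeq copy of the Release 6 assembly. Window counts, nearest genes and neighbours were tested on simulated data against a direct search. Shares have exact Clopper-Pearson 95% intervals, which cover counting error over genes only. With 1 group, no test between groups was run.

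The text names the 12 bound members of highest signal value, every unbound member, every bound member unbound in a replicate list, and up to 4 bound and 4 unbound genes of each other list. Members named for a divergent neighbour, a window edge or a printed sequence, and the further translation factors and amidotransferase genes, were picked after their values were seen. The symbols ico, mEFG2, mtIF2, mtIF3, mtRF1 and tam matched no gene. Alternatives were other lists, the strongest entries, each replicate list, other TSS windows and motif windows, gene 5′ ends, peak midpoints, merged regions and the nearest TSS only. Added after seeing the data were the entries absent from the thresholded list, promoter windows around gene 5′ ends, and the regrouping of mRpL47, mRpS24 and the respiratory chain paralogues.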

Additional observations from a re-analysis of the deposited data

How the results depend on the processing

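The count of bound members (54) lay between 48 and 58 with the larger list, gene 5′ ends only, peak midpoints, narrower or wider windows (250 or 1000 bp), 1 entry per merged region and the absent entries added. The separate replicate lists gave 42 to 54 bound members, with a median signal value of 77.57 to 115.6, in lists of their own scale, and a median distance of 86 to 94.5 bp. Members bound in both replicate lists numbered 38, with a median signal value of 245.5 and a median distance of 92 bp. With the 1000 entries of highest signal value, 6 members were bound: 3 mRpL and 3 mRpS genes, 5 with a divergent neighbour and 1 without, at a median signal value of 1092 and a median distance of 106.5 bp. The same cut left 9 of 92 cytosolic ribosomal protein genes and 8 of 87 of the respiratory chain and ATP synthase. It left 2 of 15 import genes, 1 of 15 tRNA synthetases, 1 of tko and bonsai and 1 of 14 of transcription and upkeep. Of the translation factors 0 of 9 and of the amidotransferase genes 0 of 3 were left. Over all protein-coding genes this cut left 7.82%. Giving each summit to its nearest TSS only left 34 of 73 members, with a median distance of 57.5 bp, beside 31.6% of all genes. It left 9 of 26 mRpS genes, 9 of 15 tRNA synthetases and 1 of 3 amidotransferase genes. Of the 56 members with a divergent neighbour 21 were left (37.5%), beside 41.6% of all genes so arranged. The median distance was 84 bp with the larger list, 68 bp with the 250 bp window and 91 bp with the 1000 bp window, the last with a median signal value of 208. Motif windows of 50 bp each side held the E-box in 11 members (20.4%, beside 8.08% of all promoter summits). They held CGATA in 18 (33.3% beside 33.8%) and TTTGAA in 10 (18.5% beside 23.1%). Those of 250 bp each side held the E-box in 34 (63.0% beside 31.2%) and TTTGAA in 33 (61.1% beside 63.4%). In the same windows DRE (TATCGATA) was in 8 (14.8% beside 19.3%) and E2F words in 6 (11.1% beside 15.5%). The motif 1 core was in 6 (11.1% beside 13.5%) and the NRF-1 word in 1 (1.85% beside 0.524%). Wider windows hold more letters, the strongest entries are fewer by construction, and the cause of the other changes was not tested. No paired analysis was possible because the study has 1 group. Read depth is unknown, so an unbound member may lie under the detection limit. Over the separate lists of the 2 replicates the SD was 26.9 for the median signal value and 6.01 bp for the median distance. Each is the SD of 2 list medians. The lists do not share a scale of signal value, so the first SD does not measure the spread of binding between replicates.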
